A study of Mus musculus with 9 samples.

Results

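A set of 10 genes of extracellular matrix breakdown was followed in bulk RNA sequencing of mouse liver tumors. The 7 matrix metalloproteinases were Mmp2, Mmp3, Mmp8, Mmp9, Mmp12, Mmp13 and Mmp14, and the 3 tissue inhibitors of metalloproteinases were Timp1, Timp2 and Timp3. They were chosen by name, with no measured value in the rule, though earlier results of these data were known. They are 10 of the 52176 gene symbols listed in the deposited tables. All 10 were present in all 9 tumors and all 10 passed the filter on low values in each comparison.

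Matrix metalloproteinases are zinc-dependent endopeptidases that cut collagens, elastin, laminins, proteoglycans and many proteins of the cell surface. Most are secreted as inactive proenzymes and are switched on outside the cell by other proteases, plasmin among them, while tissue inhibitors of metalloproteinases bind the active enzyme and block its active site. In liver and liver tumors they are known as products mainly of stellate cells, fibroblasts, macrophages and neutrophils, and they take part in remodeling of the tumor stroma.

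The tumors came from male C57BL/6 mice that carried orthotopic Hepa1-6 tumors. Hepa1-6 is a mouse hepatoma cell line, and pieces of a subcutaneous Hepa1-6 tumor had been implanted into the liver of hosts with an intact immune system, so each library holds RNA of tumor cells and host cells together. Mice received PBS or an antibody against PD-1, an inhibitory receptor of T cells, in 5 intraperitoneal injections, 1 every 4 days. The 3 groups were 3 PBS-treated tumors, the 3 largest tumors after anti-PD-1 antibody, called nonresponsive, and the 3 smallest, called responsive. Tumors of intermediate size were excluded by the study, so the 2 antibody groups are the ends of a range of tumor size and differ in size by selection. In bulk tissue, fewer cells of a type and less RNA per cell cannot be told apart.

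Expression was deposited as FPKM, fragments scaled to transcript length and to the number of mapped fragments, so levels can be compared between genes. Total read counts were not given, and the steps between low FPKM values put the relative depth of the 9 tumors between 0.936 and 1.07 of that of PBS tumor 1. The Cufflinks 95% confidence interval of a member extended 3.28% to 22.6% to either side of its value (median 5.05%), which covers counting and assignment error within a library and not the spread between mice. Tumors correlated with each other at Pearson r of 0.556 to 0.913 over 13476 genes, and PBS tumor 1 stood apart from most. Entries that name no gene took 19.2% to 81.5% of the FPKM sum. The Hepa1-6 and fetal liver markers (Afp, H19, Igf2, Gpc3, Dlk1, Cpe) were far from even: their summed FPKM was 26.3 in responsive tumor 1, 32.0 in nonresponsive tumor 1 and 42.1 in responsive tumor 3, against 94.8 to 200.6 in the other 6 tumors. Afp, the fetal liver protein alpha-fetoprotein, was at 0.321 FPKM in nonresponsive tumor 1 and 0.646 in responsive tumor 1. Nonresponsive tumor 2 held pancreas acinar markers (summed FPKM of 334, against 11.1 to 18.1 elsewhere), and skeletal muscle markers were highest in nonresponsive tumor 3 (211), PBS tumor 1 (77.2) and responsive tumor 2 (75.2).

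Mmp3, Mmp8, Mmp12 and Mmp13 lie in a cluster of metalloproteinase genes on chromosome 9. The deposited tables place Mmp13 at chr9:7272514-7283331, Mmp12 at chr9:7344381-7369499, Mmp3 at chr9:7445822-7455975 and Mmp8 at chr9:7558457-7568486. Mmp2 was listed at chr8:93553919-93580048, Mmp9 at chr2:164782700-164797770, Timp1 at chrX:20736405-20740974 and Timp3 at chr10:86136236-86185370. Timp2 was listed at chr11:118191895-118246566 in every tumor, while the start of Mmp14 on chromosome 14 varied between tumors. The submitters' processing notes name the build mm8, but the bounds of 3 of the 10 genes matched GRCm38 and those of 7 did not, so the build behind these coordinates was not settled. Some entries named a neighbor as well: Mmp2 shared its entry with Lpcat2 in PBS tumor 2 and nonresponsive tumor 3, Mmp3 with Mmp10 in nonresponsive tumor 1, and Timp2 with Cep295nl in 8 tumors. The shared entries of Mmp2 and Mmp3 ended further on, at chr8:93645907 and chr9:7510241. In tumors with entries of their own, Lpcat2 was at 10.9 to 44.2 FPKM, Mmp10 at 1.72 to 48.7 and Cep295nl at 0.321.

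Several metalloproteinase promoters are known for an AP-1 site, the element bound by Fos and Jun proteins, close to the transcription start. RefSeq promoter sequences of build GRCm38.p6 were found for 8 of the 10 members, in 9 windows, and the 250 bases before each start were searched on both strands for TGANTCA. The motif was present for Mmp3, Mmp12 and Mmp13, which are neighbors on chromosome 9, and absent from the windows of the other 5 members found. Of all 32851 RefSeq windows of that length, 6.75% held it. The 3 sites are shown because these genes share the motif, which is marked by capitals.
Mmp3: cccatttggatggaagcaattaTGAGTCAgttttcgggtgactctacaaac
Mmp12: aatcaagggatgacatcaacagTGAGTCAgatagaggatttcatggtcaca
Mmp13: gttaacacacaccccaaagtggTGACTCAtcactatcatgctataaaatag
The Mmp3 stretch is chr9:7445754-7445804, on the plus strand, and its motif begins 46 bases before the start. The Mmp12 stretch, chr9:7347308-7347358 on the plus strand, precedes the second of its RefSeq starts, and its motif begins 44 bases before it. The window of the first Mmp12 start did not hold the motif. The Mmp13 stretch is chr9:7272457-7272507 on the plus strand, with the motif 35 bases before the start. The letters TATAAA were found in the windows of Mmp3 and Mmp13 and in 12.4% of all windows. These matches are letters in a sequence and were not tested for binding or for a link with the levels in the tumors.

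Levels per length spanned a wide range. Mmp14, the membrane-type enzyme that activates pro-Mmp2 at the cell surface, had the highest mean over the 9 tumors (212 FPKM), followed by Mmp12 (182) and Timp1 (180), which do not differ beyond their spread over tumors (SD 72.2, 89.8 and 58.8). Timp2 (120), Timp3 (104) and Mmp2 (98.7) came next and likewise lay within each other's spread, then Mmp9 (65.3), Mmp13 (50.1) and Mmp3 (45.3). Mmp8 was the lowest, with a mean of 18.1, and was last in 8 of 9 tumors. The genes also differed in how much they varied: from the lowest to the highest tumor Timp2 spanned 1.76-fold and Mmp8 40.8-fold. The highest value of 5 members was in nonresponsive tumor 1 and that of 4 in nonresponsive tumor 2, while 6 members had their lowest value in a responsive tumor and 3 in PBS tumor 1.

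**Figure D1:**
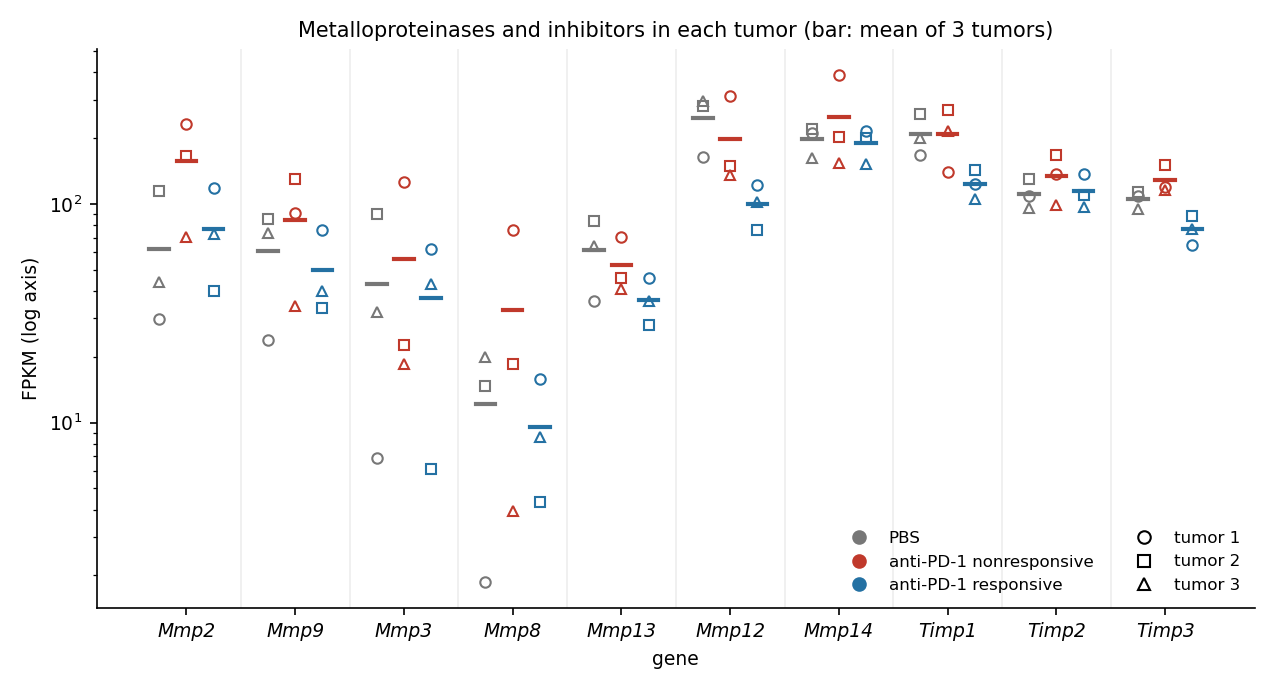
FPKM of the 10 genes (log axis) in 9 tumors, colored by group, with 1 symbol per tumor and a bar at the mean of the 3 tumors. The 3 responsive tumors lie below all others for Timp3 and Mmp12, and Mmp3 and Mmp8 spread widely within every group.

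The gelatinases Mmp2 and Mmp9 cut denatured collagen and the type IV collagen of basement membranes. Mmp2 was at 29.6, 114 and 43.9 FPKM in PBS tumors 1 to 3, at 233, 166 and 70.8 in the nonresponsive tumors, and at 119, 39.8 and 73.0 in the responsive tumors. Nonresponsive tumors 1 and 2 exceeded every other tumor, but nonresponsive tumor 3 lay among the PBS and responsive tumors, so the groups overlapped in all comparisons. The mean was 62.5 ± 45.2 (SD, n = 3) with PBS, 157 ± 81.3 in nonresponsive and 77.2 ± 39.6 in responsive tumors. On the log2(FPKM + 1) scale, Mmp2 was 1.38 higher in nonresponsive than in PBS tumors (SE 0.65, limma adjusted p = 0.718) and 0.98 lower in responsive than in nonresponsive tumors (log2 difference -0.98, SE 0.58, adjusted p = 0.963). Without PBS tumor 2 and nonresponsive tumor 3, whose entries also cover Lpcat2, the difference from PBS was 2.41 (unadjusted p = 0.00267, adjusted p = 0.353). This alternative was added after the data were seen. Between responsive and nonresponsive tumors the difference was -0.62 without nonresponsive tumor 1 and -0.58 without responsive tumor 2.

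Mmp9 was at 23.9, 85.7 and 74.0 FPKM in the PBS tumors, at 90.5, 129.8 and 34.0 in the nonresponsive tumors and at 76.2, 33.4 and 39.9 in the responsive tumors. All groups overlapped. Its log2 difference was -0.65 (SE 0.57, adjusted p = 0.973) for responsive against nonresponsive tumors, -0.19 (SE 0.58, adjusted p = 0.851) for responsive against PBS and 0.46 (SE 0.68, adjusted p = 0.775) for nonresponsive against PBS. The first of these was -0.25 without nonresponsive tumor 2, -0.41 without responsive tumor 2, -0.996 without responsive tumor 1 and -1.20 without nonresponsive tumor 3. The second was 0.14 without PBS tumor 2 and -0.76 without PBS tumor 1. The third was 0.053 without nonresponsive tumor 2, 1.00 without nonresponsive tumor 3 and -0.11 without PBS tumor 1.

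Mmp3, the stromelysin that cuts proteoglycans and activates other proenzymes, was at 6.90, 90.4 and 32.1 FPKM in the PBS tumors. In the nonresponsive tumors it was at 126, 22.5 and 18.5, the first of these values from the entry shared with Mmp10, and in the responsive tumors at 62.4, 6.16 and 42.8. Each group held a tumor with a high level and a tumor with a low level, and the SE of every comparison (1.08 to 1.19 on the log2 scale) exceeded the difference itself. Leaving out responsive tumor 2 or nonresponsive tumor 1 turned the direction of the difference between responsive and nonresponsive tumors, from -0.52 to 0.44 and 0.34.

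The collagenases Mmp8, stored in neutrophil granules, and Mmp13 open the triple helix of fibrillar collagens. Mmp8 was at 1.86, 14.7 and 19.8 FPKM with PBS, at 75.7, 18.5 and 3.95 in nonresponsive and at 15.7, 4.33 and 8.57 in responsive tumors. Nonresponsive tumor 1 stood far above every other tumor, and without it the log2 difference between responsive and nonresponsive tumors moved from -1.04 (SE 1.03, adjusted p = 0.973) to -0.05. Neutrophil markers moved with it: their summed FPKM was highest in the same tumor (6911) and lowest in PBS tumor 1 (214), where Mmp8 was also lowest. The same tumors were highest and lowest in the sums of macrophage (2338 and 733) and endothelial markers (235 and 77.1). The part of any of these cell types in the level of Mmp8 was not tested.

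Mmp13 was at 36.2, 84.0 and 64.1 FPKM in the PBS tumors, at 70.4, 45.9 and 40.9 in the nonresponsive tumors and at 45.8, 27.9 and 35.8 in the responsive tumors. The responsive tumors had the lowest mean (36.5 ± 8.98, against 52.4 ± 15.8 and 61.4 ± 24.0), but responsive tumor 1 lay above the lowest tumor of both other groups. Its log2 difference was -0.50 (SE 0.30, adjusted p = 0.965) against nonresponsive and -0.68 (SE 0.36, adjusted p = 0.340) against PBS tumors. The first was -0.27 without nonresponsive tumor 1 and -0.32 without responsive tumor 2, and the second -0.42 without PBS tumor 2.

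Mmp12, the elastin-cutting metalloproteinase of macrophages, was at 164, 281 and 296 FPKM in the PBS tumors, at 312, 149.6 and 136 in the nonresponsive tumors and at 122, 76.3 and 102 in the responsive tumors. All 3 responsive tumors lay below all 6 others. Of all genes, 4.75% lay below all nonresponsive and 16.4% below all PBS tumors in this way, and the share below all 6 at once was not counted. The mean was 99.97 ± 22.8 (SD, n = 3) in responsive, 199 ± 98.0 in nonresponsive and 247 ± 72.2 in PBS tumors. Against PBS tumors the log2 difference was -1.28 (SE 0.32, unadjusted p = 0.00778), or 2.42-fold lower, and against nonresponsive tumors -0.91 (SE 0.39, unadjusted p = 0.0595), or 1.88-fold lower. Without nonresponsive tumor 1, which had the highest level of the 9, the second difference was -0.53. Neither passed after adjustment over all genes with limma and Benjamini-Hochberg (adjusted p = 0.281 and 0.886). The exact two-sided permutation test gave p = 0.1 for both, the smallest value that 3 against 3 tumors allow.

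The markers of macrophages did not order the tumors as Mmp12 did. The summed FPKM of 10 macrophage markers (Adgre1, Csf1r, Cd68, C1qa, C1qb, C1qc, Mrc1, Fcgr1, Mertk, Cd14) was 733 to 1543 with PBS, 1400 to 2338 in the nonresponsive group and 1247 to 2211 in the responsive group, and no marker was at 0 in any tumor. Mmp12 amounted to 22.43%, 18.24% and 21.96% of that sum in the PBS tumors, to 13.34%, 6.928% and 9.685% in the nonresponsive tumors and to 5.505%, 6.117% and 5.821% in the responsive tumors. The 3 ranges did not overlap. The ratio was formed after the values were seen. Its mean log2 value was lower by 0.73 in responsive than in nonresponsive tumors (log2 difference -0.73). The differences from PBS were -1.84 in responsive and -1.11 in nonresponsive tumors. Each had an exact permutation p = 0.1, the smallest possible here. Mmp12 alone already set the responsive tumors apart. Between nonresponsive and PBS tumors Mmp12 alone overlapped (exact permutation p = 0.5), and all 10 macrophage markers had a higher mean in nonresponsive tumors. How many other genes would separate the groups over this sum was not counted. With each marker entry on its own as the denominator (C1qb and C1qc are 1 entry in 2 tumors and were counted together), responsive tumors lay below PBS tumors for 8 of 9 and nonresponsive tumors below PBS tumors for 7 of 9. Between responsive and nonresponsive tumors the ratio was without overlap for 2 of 9, which were C1qa and the pair of C1qb and C1qc, subunits of complement C1q.

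**Figure D2:**
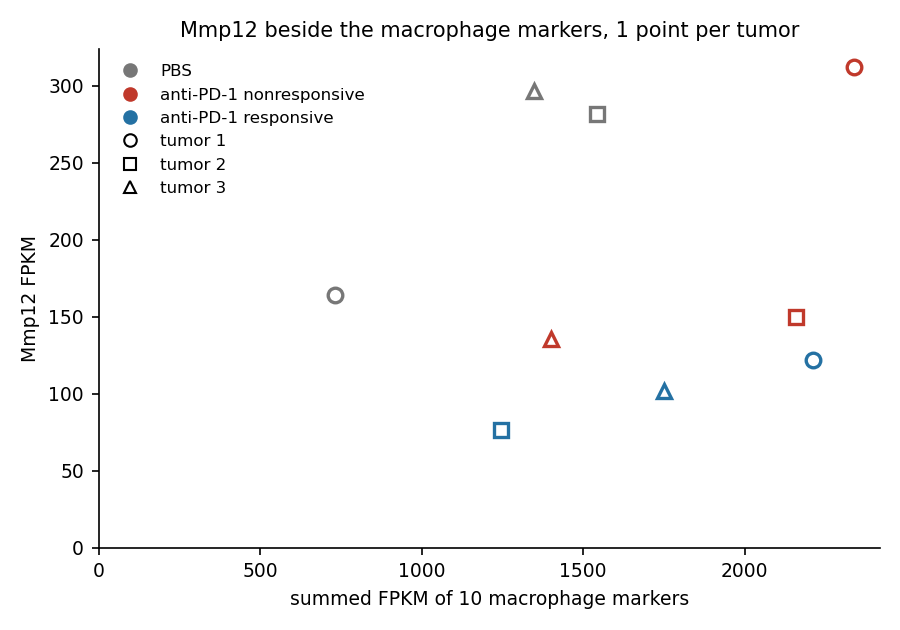
Mmp12 FPKM against the summed FPKM of 10 macrophage markers, 1 point per tumor, colored by group. PBS tumors reach 164 to 296 FPKM of Mmp12 at marker sums of 733 to 1543, and responsive tumors 76.3 to 122 at marker sums of 1247 to 2211.

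Mmp14 was at 211, 221 and 162 FPKM with PBS, at 391, 202 and 154 in nonresponsive and at 216, 201 and 152 in responsive tumors. Apart from nonresponsive tumor 1, all tumors lay between 152 and 221. Its log2 difference was -0.29 (SE 0.40, adjusted p = 0.974) for responsive against nonresponsive tumors and 0.09 when nonresponsive tumor 1 was left out.

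Among the inhibitors, Timp3, which is held in the matrix and also inhibits ADAM proteases, separated all 3 groups. It was at 109, 114 and 95.1 FPKM in the PBS tumors, at 120.1, 150.3 and 116 in the nonresponsive tumors and at 64.8, 88.5 and 76.5 in the responsive tumors. Every nonresponsive tumor was above and every responsive tumor below the PBS tumors. Of all genes, 4.75% lay below all nonresponsive and 16.4% below all PBS tumors in the responsive group. In the nonresponsive group 3.23% lay above all PBS tumors. The share of genes with all 3 groups in this order was not counted. The mean was 106 ± 9.68 (SD, n = 3) with PBS, 129 ± 18.8 in nonresponsive and 76.6 ± 11.8 in responsive tumors. The log2 difference between responsive and nonresponsive tumors was -0.74 (SE 0.22, unadjusted p = 0.0151, limma adjusted p = 0.886), or 1.67-fold lower, and the exact permutation test gave p = 0.1. Against PBS, it was -0.47 in responsive tumors (SE 0.19, unadjusted p = 0.0490, adjusted p = 0.289) and 0.27 in nonresponsive tumors (SE 0.20, unadjusted p = 0.212, adjusted p = 0.718). With any 1 tumor left out, the difference between responsive and nonresponsive tumors lay between -0.85 and -0.63 (unadjusted p = 0.017 to 0.059).

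Timp1, the secreted inhibitor known to be raised in liver fibrosis, was at 168, 258 and 199 FPKM in the PBS tumors, at 139.6, 269 and 216 in the nonresponsive tumors and at 123, 143 and 106 in the responsive tumors. The responsive tumors lay below all PBS tumors but overlapped with nonresponsive tumor 1. The mean was 124 ± 18.4 (SD, n = 3) in responsive tumors, against 208 ± 65.2 in nonresponsive and 209 ± 45.6 in PBS tumors. Its log2 difference was -0.74 against PBS (SE 0.24, unadjusted p = 0.0226, adjusted p = 0.281) and -0.71 against nonresponsive tumors (SE 0.31, unadjusted p = 0.0610, adjusted p = 0.886). Without nonresponsive tumor 1 the second value was -0.97 (unadjusted p = 0.0128, adjusted p = 0.340).

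Timp2, which inhibits metalloproteinases and also takes part in the activation of pro-Mmp2 by Mmp14, was the most even of the 10. It was at 108, 130.4 and 95.7 FPKM with PBS, at 137, 168 and 98.4 in nonresponsive and at 138, 109.7 and 96.7 in responsive tumors. Its log2 differences were -0.21 (SE 0.28), 0.037 (SE 0.22) and 0.25 (SE 0.27), with adjusted p = 0.973, 0.927 and 0.726, for responsive against nonresponsive, responsive against PBS and nonresponsive against PBS. Without nonresponsive tumor 2 the first was -0.034 and the third 0.071, and without nonresponsive tumor 3 they were -0.42 and 0.45.

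Counted together, 0 of the 10 members passed an adjusted p of 0.05 in any of the 3 comparisons, which share groups and are not independent of each other. Between responsive and nonresponsive tumors 16 of 13832 genes passed (0.116%), between responsive and PBS 32 of 13841 (0.231%), and between nonresponsive and PBS 11 of 13793 (0.0798%). At an unadjusted p under 0.05 the members numbered 1 (Timp3), 3 (Mmp12, Timp1 and Timp3) and 0, all lower in responsive tumors, beside 5.49%, 17.2% and 3.22% of all genes. Leaving out 1 tumor moved the first count to 0 (when nonresponsive tumor 2 or either of responsive tumors 1 and 3 was dropped), to 2 (without nonresponsive tumor 1) and to 5 (without nonresponsive tumor 3), and the second to 1 (without responsive tumor 1 or 3 or PBS tumor 2 or 3). The third became 1 without nonresponsive tumor 3 or PBS tumor 2. With 1 tumor left out, all genes at that p numbered 310 to 1425, 1005 to 3875 and 216 to 1859 in the 3 comparisons, in place of 759, 2387 and 444. By direction, the shares of all genes were 4.05% higher and 1.44% lower, 8.48% higher and 8.76% lower, and 1.51% higher and 1.71% lower. Responsive tumors lay below all nonresponsive tumors for 2 members (4.75% of all genes) and below all PBS tumors for 3 (16.4%), and nonresponsive tumors lay above all PBS tumors for 1 (3.23%). Groups without overlap made up 10.5% of all genes between responsive and nonresponsive tumors (5.78% higher), 28% between responsive and PBS (11.6% higher) and 8.21% between nonresponsive and PBS (4.97% lower).

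All 10 members had a lower mean log2 value in responsive than in nonresponsive tumors, as did 57.5% of all genes (42.5% were higher), and their median difference was -0.68 beside -0.07 over all genes. Without nonresponsive tumor 1, 8 of the 10 were lower and the median was -0.39. With both nonresponsive tumor 1 and responsive tumor 1 left out, which had the lowest Hepa1-6 and fetal liver markers, 10 of 10 were lower and the median was -0.57. Against PBS, 8 members were lower in responsive tumors (57.9% of all genes, with 42.1% higher) with a median of -0.14, beside -0.11 over all genes. Without PBS tumor 1, 9 members were lower and the median was -0.82. Without PBS tumor 2 the members lower numbered 4 with a median of 0.081, and without responsive tumor 2 they numbered 5 with a median of -0.035. In nonresponsive tumors 7 were higher than with PBS (44.5% of all genes, with 55.5% lower) with a median of 0.26, beside -0.06, and without PBS tumor 1 the count was 5.

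**Figure D3:**
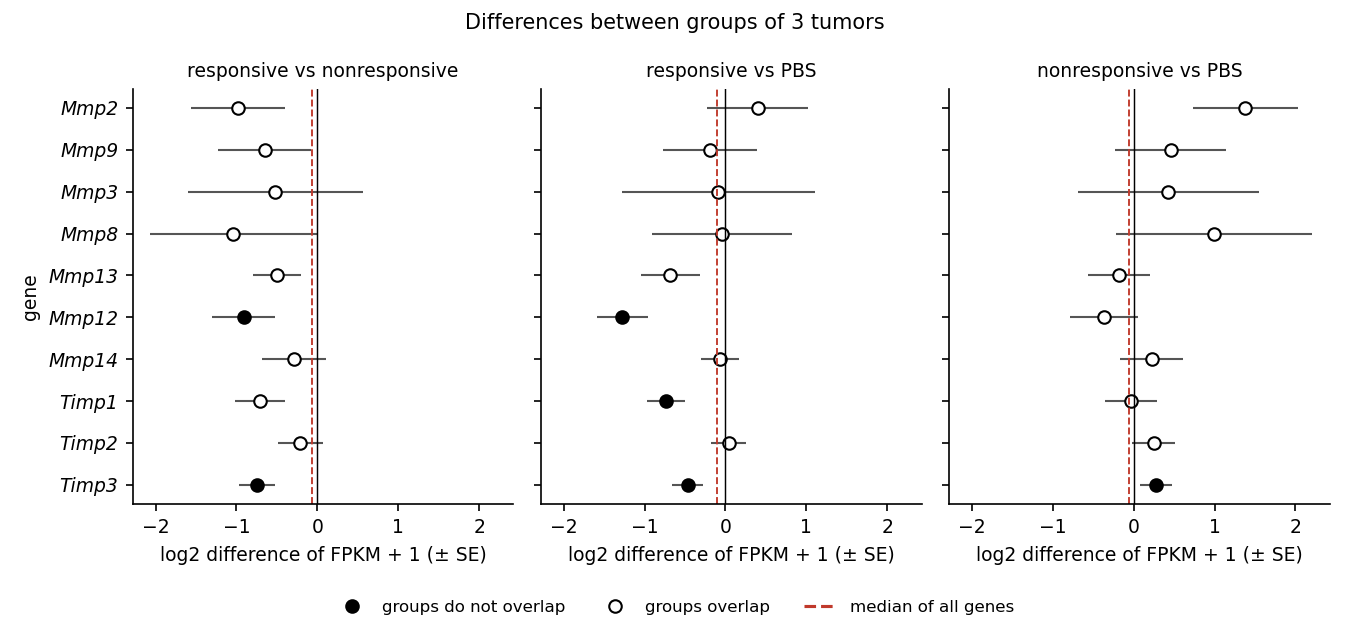
Difference of mean log2(FPKM + 1) between groups of 3 tumors for the 10 genes, with SE from limma. Filled points mark genes whose groups do not overlap, and the dashed line is the median of all genes tested. Timp3 is filled in all 3 panels, at -0.74, -0.47 and 0.27.

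Hepatocyte markers moved with the comparison. Their summed FPKM was 315 to 2952 with PBS, 1861 to 6672 in the nonresponsive group and 6318 to 16357 in the responsive group, with no marker at 0, and all 10 of them had a higher mean in responsive than in nonresponsive tumors (median log2 difference 1.42). Albumin (Alb) was at 2576 to 5041 FPKM in responsive tumors, against 885 to 2678 in nonresponsive and 173 to 1259 in PBS tumors. FPKM values are shares of a library, and the part of liver tissue in the lower member levels was not tested. Rescaling the tumors to an equal sum of the values per gene symbol moved the median of all genes between responsive and nonresponsive tumors from -0.07 to -0.37. In that sum an entry that names several genes can count more than once. On that scale 4 members and 1135 of all genes had an unadjusted p under 0.05, and 0 members passed after adjustment.

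Summed over the 7 metalloproteinases, the FPKM was 474, 891 and 692 with PBS. It was 1298, 734 and 458 in the nonresponsive group, and the responsive tumors had 657, 389 and 454. The groups overlapped, and the nonresponsive tumors ranged most widely, from 458 to 1298. Summed over the 3 inhibitors, it was 385, 502 and 390 with PBS and 397, 588 and 431 in the nonresponsive group. The responsive tumors had 326, 341 and 279, so that all 3 responsive tumors were below the other 6. The ratio of the sums ranged from 1.23 to 1.78 with PBS, 1.06 to 3.27 in the nonresponsive group and 1.14 to 2.02 in the responsive group, so that all groups overlapped. Mmp12 and Mmp14 together made up 47.9% to 79.2% of the metalloproteinase sum. These sums are given as values, without a test, and the inhibitor sum repeats the lower levels of Timp1 and Timp3 given above. Of all single genes, 4.75% lay below all nonresponsive tumors and 16.4% below all PBS tumors in the responsive group. The share below all 6 at once was not counted.

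**Figure D4:**
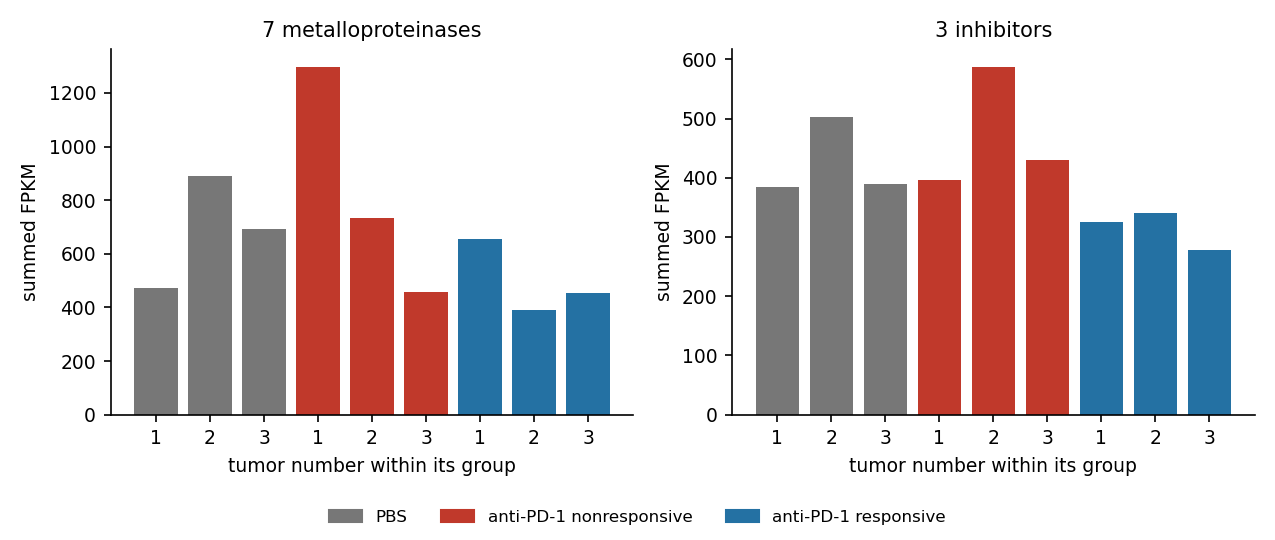
Summed FPKM of the 7 metalloproteinases (left) and of the 3 inhibitors (right), 1 bar per tumor, colored by group. The responsive tumors reach 279 to 341 for the inhibitors, below the 385 to 588 of the other 6 tumors, while the metalloproteinase sums overlap.

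To describe which members varied together, 95 relations were computed over the 9 tumors on the log2(FPKM + 1) scale, 45 between members and 50 between a member and the mean of a cell type marker list, each with an exact permutation test and Benjamini-Hochberg adjustment over all 95. Of the pairs of members, 42 of 45 correlated positively (Pearson r from -0.11 to 0.920, median 0.451). Mmp12 and Mmp13, neighbors on chromosome 9, had the highest r of the member pairs (r = 0.920, exact p = 0.00117, adjusted p = 0.0371; rho = 0.833, exact p = 0.00827, adjusted p = 0.0982). Their r was 0.897 without the 2 tumors farthest from the median of Mmp12 and 0.910 after subtraction of the group means. By rank, the gelatinases Mmp2 and Mmp9 went together (rho = 0.917, exact p = 0.00131, adjusted p = 0.0249). Their Pearson r was 0.796 (exact p = 0.0141, adjusted p = 0.073), 0.704 without the 2 tumors farthest from the median of Mmp2 and 0.837 after subtraction of the group means.

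Both gelatinases followed the markers of fibroblasts and stellate cells, the collagen-producing cells of the liver. For Mmp2 and the mean of 13 such markers r was 0.965 (exact p = 6.61e-05, adjusted p = 0.00628) and rho 0.983 (exact p = 4.96e-05, adjusted p = 0.00471), with r = 0.966 without the 2 farthest tumors and 0.954 within groups. For Mmp9 r was 0.885 (exact p = 0.00205, adjusted p = 0.0487) and rho 0.933 (exact p = 7.50e-04, adjusted p = 0.0237), with r = 0.759 without the 2 farthest tumors and 0.953 within groups. Mmp2 also followed the macrophage markers (r = 0.920, exact p = 4.905e-04, adjusted p = 0.0233; rho = 0.950, exact p = 3.527e-04, adjusted p = 0.01675), with r = 0.881 without the 2 farthest tumors and 0.8999 within groups. By rank, Mmp2 also went with the endothelial markers (rho = 0.90, exact p = 0.00203, adjusted p = 0.0321; r = 0.859, adjusted p = 0.0515, 0.714 without the 2 farthest tumors and 0.947 within groups). Likewise by rank, Mmp9 went with the macrophage markers (rho = 0.917, exact p = 0.00131, adjusted p = 0.0249; r = 0.845, adjusted p = 0.0515, 0.6685 without the 2 farthest tumors and 0.9437 within groups). Each gelatinase thus went with markers of several cell types, and the part of any of them in its level was not tested.

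**Figure D5:**
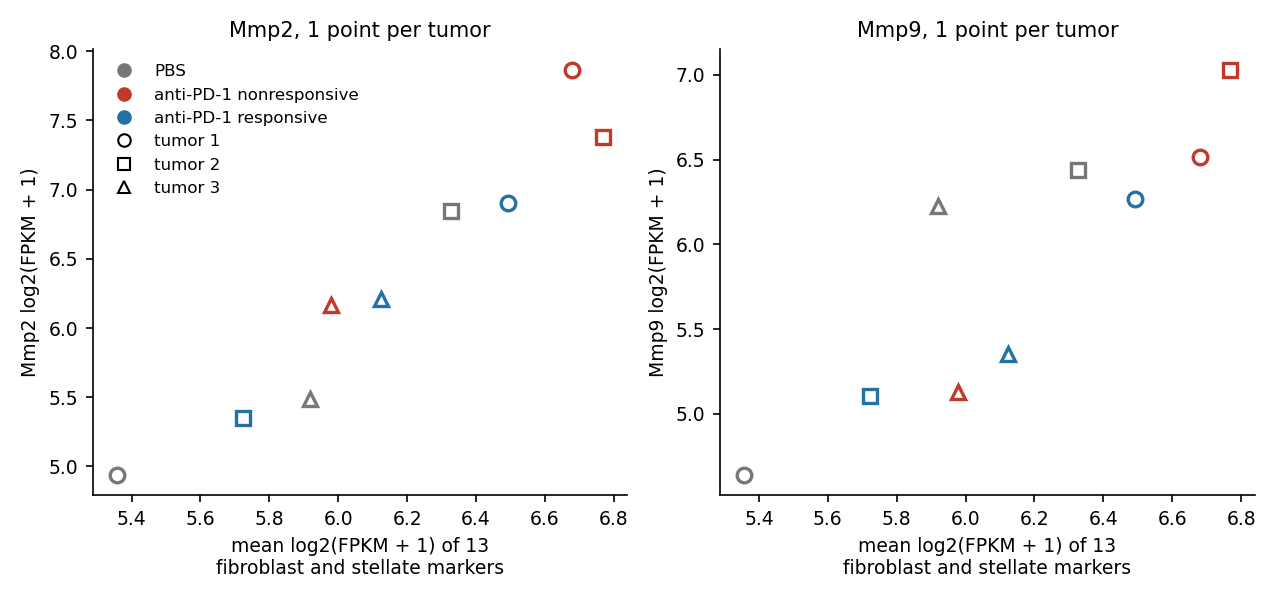
Mmp2 (left) and Mmp9 (right), as log2(FPKM + 1), against the mean of the same measure over 13 fibroblast and stellate markers, 1 point per tumor, colored by group. Pearson r is 0.965 for Mmp2 and 0.885 for Mmp9.

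The remaining relations described here did not pass the adjusted threshold. Mmp8 correlated with the neutrophil markers at r = 0.842 (exact p = 0.00562, adjusted p = 0.0571, with rho = 0.80, exact p = 0.0138, adjusted p = 0.145), and at 0.603 without the 2 farthest tumors. Its r was much the same with macrophage (0.829), endothelial (0.824) and fibroblast and stellate markers (0.815), and 0.524 with hepatocyte markers. Within groups it was 0.890 with neutrophil, 0.873 with macrophage, 0.928 with endothelial, 0.824 with fibroblast and stellate and 0.923 with hepatocyte markers. Mmp12 and the macrophage markers gave r = 0.221 over all tumors (exact p = 0.571, adjusted p = 0.692; rho = 0.20, exact p = 0.613, adjusted p = 0.728), 0.0537 without the 2 farthest and 0.775 within groups. Timp1 and the fibroblast and stellate markers gave r = 0.133 (exact p = 0.728, adjusted p = 0.814; rho = 0.10, exact p = 0.81, adjusted p = 0.905), -0.17 without the 2 farthest tumors and 0.189 within groups. For Timp3 r was 0.216 (exact p = 0.5765, adjusted p = 0.692; rho = 0.40, exact p = 0.291, adjusted p = 0.485), 0.717 without the 2 farthest tumors and -0.06 within groups.

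The genes whose pattern over the 9 tumors was most like that of a member were sought among 13476 genes by Pearson r, as a description. Mmp2 was followed most closely by Rcn1, a calcium-binding protein of the endoplasmic reticulum (r = 0.993), the C-type lectin Clec4a3 (0.990) and the small proteoglycan Podn (0.979). Mmp8 was closest to Adam8, a membrane protease of leukocytes (0.981), and Ptges, a prostaglandin E synthase (0.978). Mmp3 was closest to Rab44 (0.975), Mmp9 to the lymphocyte receptor Ly9 (0.968) and Mmp14 to Stard3 (0.955). The third closest gene of Mmp12 (0.928) and the second of Mmp13 (0.912) was the same, Inhba, which encodes a subunit of activin. Timp1 was closest to the entry of the collagen cross-linking enzyme Loxl2 (0.933), Timp2 to the collagen chain Col6a1 (0.954) and Timp3 to Pacs1 (0.966).

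Of 20 other metalloproteinases and inhibitors, 13 could be tested between responsive and nonresponsive tumors, with 10 lower and 3 higher (median -0.30), and 4 were listed at 0 in all tumors (Mmp1a, Mmp1b, Mmp21 and Timp4). Mmp7, the small epithelial metalloproteinase matrilysin, ran against the members. It was at 1.95, 28.5 and 20.9 FPKM with PBS, at 9.23, 7.53 and 4.04 in nonresponsive and at 24.7, 40.8 and 52.3 in responsive tumors. All responsive tumors exceeded all nonresponsive tumors, with a log2 difference of 2.34 (SE 0.39, unadjusted p = 0.00102, limma adjusted p = 0.505). Mmp10, the second stromelysin, ranged from 1.72 to 48.7 FPKM outside the entry it shares with Mmp3, and Pzp, a broad inhibitor of proteases from liver, from 13.2 to 543.

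The proteases and inhibitors that govern activation of proenzymes numbered 18, of which 17 were tested, with 8 higher and 9 lower in responsive than in nonresponsive tumors. At an unadjusted p under 0.05, 3 were higher and 1 was lower, and 0 passed after adjustment. Those higher were Serpinf2, the plasmin inhibitor made by liver (log2 difference 1.12), Klkb1, plasma prekallikrein (1.12, in an entry with Cyp4v3 and Gm45753), and St14, the membrane protease matriptase (0.97). The gene that was lower was Serpinb2, an inhibitor of plasminogen activators (-1.52, in an entry with Serpinb10). Plasminogen itself (Plg), a hepatocyte product, ranged from 5.28 to 98.6 FPKM with PBS, 59.3 to 199 in the nonresponsive group and 159 to 378 in the responsive group. Plaur, the receptor that holds the plasminogen activator urokinase at the cell surface, was at 35.8 to 83.9 FPKM in responsive and 124 to 154 in PBS tumors (log2 difference -1.10, unadjusted p = 0.0271, adjusted p = 0.281). Klkb1, St14 and Serpinb2 were chosen after their values were seen.

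Matrix substrates were lower in responsive than in nonresponsive tumors for 18 of the 19 tested (median -0.55), with 3 at an unadjusted p under 0.05 and 0 after adjustment. These were the collagen chain Col5a1 (-0.70), the basement membrane linker nidogen Nid1 (-0.77) and the proteoglycan versican Vcan (-1.24), named after their values were seen, and each was without overlap between the groups. The most abundant of the 19 tested were Sparc, at 638 to 1599 FPKM over the antibody-treated tumors, Dcn and Col3a1 (log2 difference -0.55, -0.35 and -0.80, SE 0.42, 0.43 and 0.42). Fibronectin (Fn1), also on this list, had a failed estimate and was left out, so it has no place in that order. Of ADAM and ADAMTS proteases 13 of 14 were lower (median -0.45) and 0 had an unadjusted p under 0.05. The most abundant, Adam10, Adam8 and Adamts2, had log2 differences of 0.04 (SE 0.51), -0.57 (SE 0.75) and -0.41 (SE 0.57).

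Among 24 tested inducers and transcription factors 20 were lower (median -0.26), and Runx1, a factor known to act on metalloproteinase promoters, was the 1 with an unadjusted p under 0.05. It was at 27.3, 26.6 and 24.1 FPKM with PBS, at 32.5, 31.5 and 26.3 in nonresponsive and at 16.2, 16.3 and 17.3 in responsive tumors (log2 difference -0.82, SE 0.17, unadjusted p = 0.00341, adjusted p = 0.828). All 3 responsive tumors lay below the other 6, beside 4.75% of all genes below the nonresponsive and 16.4% below the PBS tumors. The share of genes below all 6 was not counted. Runx1 was chosen after its values were seen. The abundant inducers Bsg, the membrane protein basigin, Il1b and the AP-1 subunit Junb had log2 differences of 0.09 (SE 0.45), -0.40 (SE 1.06) and -0.22 (SE 0.27).

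Against PBS tumors, the same lists again held 0 genes past adjustment. In responsive tumors, those at an unadjusted p under 0.05 included Mmp15 among other metalloproteinases (1.11), Plg, Serpinf2, Klkb1 and Hpn (1.94 to 2.88) and Plaur and Prss22 (-1.10 and -1.78) in the activation list, Adamts1 and Adamts4 (-0.49 and -0.92), and Runx1 and Cd44 (-0.62 and -0.82). No matrix substrate did so in that comparison. In nonresponsive tumors they were Mmp28 (-0.75), the substrate elastin Eln (0.95) and Cd44 (-0.47). Of the matrix substrates 14 of 19 were higher in nonresponsive than in PBS tumors (median 0.42) and 12 of 19 lower in responsive than in PBS tumors (median -0.19). Apart from Plg, Serpinf2 and Plaur, these genes were named after their values were seen.

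Cell type markers between responsive and nonresponsive tumors stood as follows, beside a median of -0.07 over all genes and with 0 genes past adjustment. Macrophage markers were lower for 9 of 10 (median -0.58) and fibroblast and stellate markers for 10 of 13 (median -0.35). C1qb (-0.76) and C1qc (-0.97) share 1 entry in nonresponsive tumors 1 and 2, and each carries its full value there. Their 2 differences and the macrophage median are therefore inflated. Counted once, the pair was at 869, 972 and 660 FPKM in nonresponsive and 890, 578 and 720 in responsive tumors, which overlap. Neutrophil markers were lower for 8 of 12 (median -0.21) and endothelial markers for 6 of 7 (median -0.09). T cell markers were higher for 7 of 7 (median 0.43), with summed FPKM of 131 to 184 in responsive and 102 to 124 in nonresponsive tumors. Of the macrophage markers Fcgr1 alone had an unadjusted p under 0.05 (-0.84). The part of these cell types in the member levels was not tested.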

How the data were processed

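RNA of 9 whole tumors was sequenced. The deposited per-tumor tables hold Cufflinks FPKM values made by the authors, normalized for transcript length and mapped fragments. The submitters' processing notes name TopHat2 2.1.1, Bowtie2 2.2.4 and mm8. A deposited series-wide table holds the authors' Cuffdiff group values, fold changes, p-values and q-values and was not used. FPKM was summed per gene symbol over the entries naming it. Entries naming no gene and 13 symbols with a failed estimate in a tumor were left out.

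Groups were compared on log2(FPKM + 1), which understates differences of low genes, with limma 3.58.1 in R 4.3.3 (lmFit, eBayes with trend, two-sided, Benjamini-Hochberg over all genes tested), on the 6 tumors of each comparison and on genes that reached 1 FPKM in 3 or more of these. Permutation tests were exact and two-sided. Those of single members between groups were run in R. Those of the Mmp12 ratio and of the correlations were run in Python 3.11.15 (scipy 1.17.1, numpy 2.4.6, pandas 2.3.3). Plots were drawn with matplotlib 3.10.9. P-values measure the spread between these tumors. In 20 simulated sets of the responsive against nonresponsive comparison (13832 genes), a log2 change of 2 reached an unadjusted p under 0.05 for 89.5% and an adjusted one for 35.9% of changed genes, and a change of 1 for 68.8% and 1%. Of unchanged genes 5.33% reached an unadjusted p under 0.05. The changes were placed only in genes above a set mean level, which Mmp8 did not reach. Noise was drawn separately for each gene, so variation shared between genes was not simulated and these rates need not hold for the tumors.

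Groups and replicate numbers came from the sample labels. No 2 tumors were duplicates. Promoter sequences were RefSeq's (GRCm38.p6). The members and gene lists were chosen with earlier results of these data known. The rule for naming genes took the members, the 3 most abundant genes of each list of related genes, list genes with an adjusted p under 0.05, and the 3 genes nearest to each member by correlation, of which 1 to 3 are given. Other genes are named as chosen after their values were seen, or stand as markers. A gene of the activation list is not reported here.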

Additional observations from a re-analysis of the deposited data

Results flagged for a closer look

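Timp3 lay on opposite sides of the PBS tumors in the 2 groups of antibody-treated tumors: each of the 3 nonresponsive tumors lay above all PBS tumors and each of the 3 responsive tumors below them. Taken singly, 3.23% of all genes lay above all PBS tumors in the nonresponsive group and 16.4% below them in the responsive group. The share of genes with both was not counted. The difference between the 2 antibody groups was -0.74 on the log2(FPKM + 1) scale. Its test with limma gave an adjusted p of 0.886 over all genes and an unadjusted p of 0.0151.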

How the results depend on the processing

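Of 470 log2 differences of a member recomputed under another setting, 30 turned direction, 24 of them among 180 that left out 1 tumor, and 17 of 30 results never turned. No member passed adjustment in any setting (lowest adjusted p = 0.159). For responsive against nonresponsive tumors, leaving out 1 tumor gave -1.13 to 0.44 for Mmp3 and -0.58 to 0.090 for Mmp14. For responsive against PBS it gave -0.013 to 0.94 for Mmp2, -1.02 to 0.87 for Mmp3, -0.93 to 0.50 for Mmp8, -0.76 to 0.14 for Mmp9, -0.20 to 0.085 for Mmp14 and -0.10 to 0.16 for Timp2. For nonresponsive against PBS it gave -0.50 to 1.26 for Mmp3, -0.11 to 1.00 for Mmp9, -0.52 to 0.079 for Mmp13, -0.16 to 0.51 for Mmp14 and -0.24 to 0.23 for Timp1. Mmp8 against PBS in responsive tumors was 0.025 with a pseudocount of 0.1 and 0.0021 with upper-quartile scaling. Scaling to the sum of values per gene symbol gave -0.22 for Timp2 there and 0.059 for Timp1 in nonresponsive against PBS tumors. Without the tumors whose Mmp2 entry covers Lpcat2, Mmp13 was 0.23 and Timp1 0.082 in that comparison. The causes were not tested.

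The count of all genes past adjustment was unsteady. With genes of 1 locus joined it was 8, 19 and 5, in place of 16, 32 and 11, and leaving out 1 tumor gave 0 to 32, 7 to 49 and 2 to 30. Without the filter it was 10 between responsive and nonresponsive tumors and 5 between nonresponsive and PBS, and with a filter at 5 FPKM 8 in the former. With all 9 tumors in 1 fit it was 16 between responsive and PBS and 6 between nonresponsive and PBS. It was 0 without the 2 tumors lowest in Hepa1-6 markers, and 0 without the 2 Lpcat2 tumors, which were alternatives chosen after seeing the data. Same-numbered tumors of different groups correlated in their deviations from group means at -0.42 to 0.517. The highest value was that of responsive tumor 1 with nonresponsive tumor 1. These correlations cannot show whether the numbers pair tumors, because the labels name no shared batch or day, and pairing was not tested. With the replicate number as a block, 1, 0 and 0 genes and 0 members passed, and members at an unadjusted p under 0.05 numbered 2, 1 and 0 in place of 1, 3 and 0. That last count was 4 between responsive and nonresponsive tumors with the scaling to values per symbol and 3 with all 9 tumors in 1 fit, and 0 to 5 with 1 tumor left out. It was 1 in nonresponsive against PBS tumors with the scaling to values per symbol and without the Lpcat2 tumors. All genes at an unadjusted p under 0.05 numbered 948 in place of 2387 between responsive and PBS tumors with the block. Between nonresponsive and PBS tumors they numbered 237 with the block, 810 without the filter, 270 with the filter at 5 FPKM and 1724 without the Lpcat2 tumors, in place of 444. Total reads are unknown, so the depth limit of low genes could not be stated.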
